A study of Mus musculus with 20 samples.

Results

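Adult basal cells and luminal progenitors of the mouse mammary gland were compared by the sites at which their chromatin was open to the Tn5 transposase (ATAC-seq). The members of the comparison were all peaks of the pooled basal list and the pooled luminal progenitor list on chromosomes 1 to 19 and X. These were 80294 basal and 60030 luminal progenitor peaks, together 140324 of the 281818 nuclear peaks that the series lists for 4 normal cell types. A peak was counted as shared when it overlapped a peak of the other list by at least 1 bp, and as unpartnered when it did not. The basal list came from 2 samples and the luminal progenitor list from 2 samples, all sorted by FACS from wild-type mammary glands of adult C57BL6J mice. The labels give neither age in weeks, parity nor sorting markers, and the authors called peaks on both samples of a type together. Each cell type was therefore a single list, no replicate error could be computed and no difference was tested. The spread over 20 chromosomes is given in its place, and depth per sample is unknown. As context, peaks were also set against fMaSC peaks (2 samples of fetal mammary stem cells at embryonic day 18, C57BL6J), mature luminal peaks (2 adult C57BL6J samples) and PY230 regions. PY230 is a mammary tumour cell line of the mouse, here transplanted into syngeneic animals (labelled C57BL6J). Its regions were those called open or closed in luminal SOX10-high (3 samples) relative to luminal SOX10-low cells (3 samples), as the sample descriptions imply.

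The mammary duct has 2 epithelial layers. Basal cells form the outer layer against the basement membrane, contract to eject milk and include cells with stem cell activity in transplants. Luminal progenitors lie in the inner layer, express the receptor Kit and the ETS-family factor Elf5, and give rise to the alveolar cells that make milk. Mature luminal cells are the hormone-sensing cells of the same layer. An accessible site is typically a promoter, an enhancer or another element at which bound factors displace nucleosomes, and most sites that differ between cell types are distal elements. The annotation at hand was of another build than the mm9 coordinates of the lists, so marker genes were not placed, the identity of the sorted cells was not checked against markers, and sites are given by position.

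Basal cells had the larger unpartnered repertoire. Of 80294 basal peaks, 37143 (46.3%) had no luminal progenitor peak, against 15242 of 60030 luminal progenitor peaks (25.4%) without a basal peak. These shares are the background against which the counts below are read. The exact binomial 95% intervals, which cover counting error only, were 45.9 to 46.6% and 25.0 to 25.7%. Among chromosomes the unpartnered share of basal peaks ran from 38.1% on chromosome X through a median of 45.5% to 51.7% on chromosome 11 (SD 3.02 points). For luminal progenitor peaks it ran from 19.9% on chromosome 11 through 24.9% to 29.3% on chromosome 18 (SD 2.37 points). The ranges did not overlap, and the basal share was higher on 20 of 20 chromosomes. Most shared peaks had 1 partner each, so the 2 shares are tied to the lengths of the lists, and lists of equal length must leave nearly equal numbers unpartnered. When only the 30015 strongest peaks of each list by the authors' fold were kept, 33.5% of basal and 32.3% of luminal progenitor peaks were unpartnered. With the basal list shortened to its 60030 strongest peaks the shares were 36.6% and 33.4%. These values follow from the equal lengths and carry no comparison of the cell types. Nor does the gap in shares between the full lists, beyond their numbers of peaks. Every chromosome held more basal than luminal progenitor peaks, so the same holds for the count of chromosomes with a higher basal share. A site present in fewer cells of a sorted population and a site less open in each cell cannot be told apart in such lists.

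**Figure D1:**
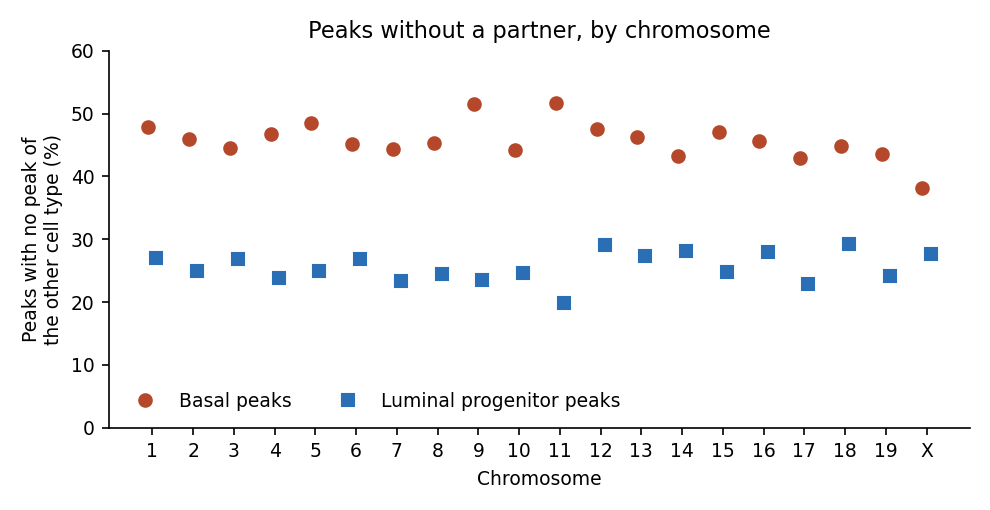
Share of peaks without a peak of the other cell type (%, vertical axis) on each chromosome (horizontal axis), for basal peaks (red circles) and luminal progenitor peaks (blue squares). Basal shares lie between 38.1% and 51.7% and luminal progenitor shares between 19.9% and 29.3%, with the highest basal and the lowest luminal progenitor share on chromosome 11.

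Chromosome 11 stood at opposite ends for the 2 cell types. It had the highest share of unpartnered basal peaks (2811 of 5438) and the lowest share of unpartnered luminal progenitor peaks (691 of 3464). On chromosome X, 591 of 1552 basal peaks were unpartnered, the lowest basal share, while the luminal progenitor share there was 27.6% (378 of 1368). Chromosome X held 1.59% of unpartnered and 2.23% of shared basal peaks. It held 2.48% of unpartnered and 2.21% of shared luminal progenitor peaks. Across the 20 chromosomes the unpartnered shares of both types had a Spearman rho of -0.12, as a description over chromosomes of the same libraries. Within a chromosome, too, both shares are tied to its numbers of peaks in the 2 lists. The part of this in the positions of chromosomes 11 and X was not tested.

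Measured in bases, the basal list covered 70.4 Mb and the luminal progenitor list 47.5 Mb, with 36.5 Mb in common. This was 51.9% of basal and 77.0% of luminal progenitor accessible sequence. Of the 33.9 Mb that basal cells did not share, 21.5 Mb lay in unpartnered peaks and the rest in the flanks of shared peaks. Of the 10.9 Mb that luminal progenitors did not share, 7.12 Mb lay in unpartnered peaks. Merging both lists gave 94896 regions. Of these, 37143 (39.1%) were basal only, 15242 (16.1%) luminal progenitor only and 39920 (42.1%) held exactly 1 peak of each type. Broad basal peaks spanned several luminal progenitor peaks in 1995 regions, and a single luminal progenitor peak spanned several basal peaks in 510 regions. In another 86 regions several peaks met several. At most, 6 peaks of the other type met in 1 peak, in either list.

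Unpartnered peaks were weak and narrow in both cell types. The median width was 482 bp for unpartnered and 956 bp for shared basal peaks. For luminal progenitors it was 404 bp for unpartnered and 728 bp for shared peaks. By the authors' fold, used only as a rank within its list, the median unpartnered basal peak stood at percentile 31.9 and the median shared basal peak at percentile 68.3. The median unpartnered luminal progenitor peak stood at percentile 25.6 and the median shared one at percentile 60.2. In the weakest decile of each list, 78.2% of basal and 51.6% of luminal progenitor peaks were unpartnered. In the strongest decile 4.51% of basal (362 of 8029) and 1.33% of luminal progenitor peaks (80 of 6003) were. The share fell from each decile to the next in both lists, and the basal share, from the longer list, was the higher in all 10 deciles. Width gave the same gradient. With each list cut into 5 equal classes by width, 73.4% of the narrowest and 10.2% of the widest basal peaks were unpartnered. In luminal progenitors these shares were 48.1% and 3.0%. Fold and width went together, with a Spearman rho of 0.84 in basal and 0.83 in luminal progenitor peaks over 39920 matched pairs, so these are not separate gradients. A wider peak also meets a peak of the other list more readily, and the part of this in both gradients was not tested.

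**Figure D2:**
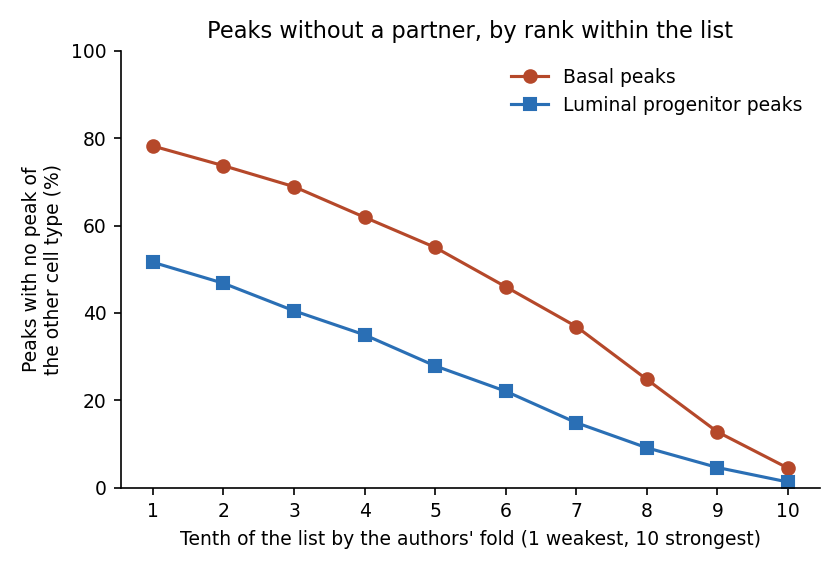
Share of peaks without a peak of the other cell type (%, vertical axis) by decile of the authors' fold within each list (horizontal axis, 1 weakest, 10 strongest), for basal (red circles) and luminal progenitor peaks (blue squares). Both curves fall at every step, to 4.51% and 1.33% in the strongest decile.

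Distances from unpartnered peaks to the other list spanned a wide range. The median distance to the nearest luminal progenitor peak was 8699 bp for unpartnered basal peaks (quartiles 2958 and 23592 bp). The median distance to the nearest basal peak was 5914 bp for unpartnered luminal progenitor peaks (1923 and 17244 bp). Within 1 kb of the other type lay 9.62% of unpartnered basal and 14.6% of unpartnered luminal progenitor peaks. Within 10 kb lay 53.7% and 62.9%. More than 100 kb from any peak of the other type lay 1908 basal peaks (5.14%) and 825 luminal progenitor peaks (5.41%). The basal list is the denser, which shortens distances to it, and the part of list density in these values was not tested.

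At the sites open in both cell types the peak centres nearly coincided, and basal peaks were broader. Among 39920 pairs of 1 basal and 1 luminal progenitor peak, centres were a median of 69 bp apart (quartiles 30.0 and 132 bp) and within 100 bp of each other in 64.2%. The basal peak was the wider in 27858 pairs (69.8%), with medians of 928 bp in basal cells and 733 bp in luminal progenitors and a median ratio of 1.17. The luminal progenitor peak lay wholly inside the basal peak in 21099 pairs (52.9%), and the basal peak inside the luminal progenitor peak in 6890 (17.3%). Edges were staggered in 11929 pairs (29.9%) and identical in 2. Widths of separately called lists move with depth, which is unknown, so the part of depth in this difference was not tested.

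Ranks of the paired peaks went together, with a Spearman rho of 0.67 for fold and 0.70 for width across 39920 pairs, given as a description since pairs are not independent replicates. Ranks were taken among the pairs, so both lists had the same length. Of 3916 pairs in the strongest decile of basal cells, 2612 (66.7%) were also in the strongest decile of luminal progenitors, which held 3965 pairs because equal folds share a rank. Large departures were few. The percentile was at least 50 points higher in basal cells in 1000 pairs (2.51%) and at least 50 points higher in luminal progenitors in 1046 pairs (2.62%). Ranks within a list do not measure a change in accessibility between cell types.

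**Figure D3:**
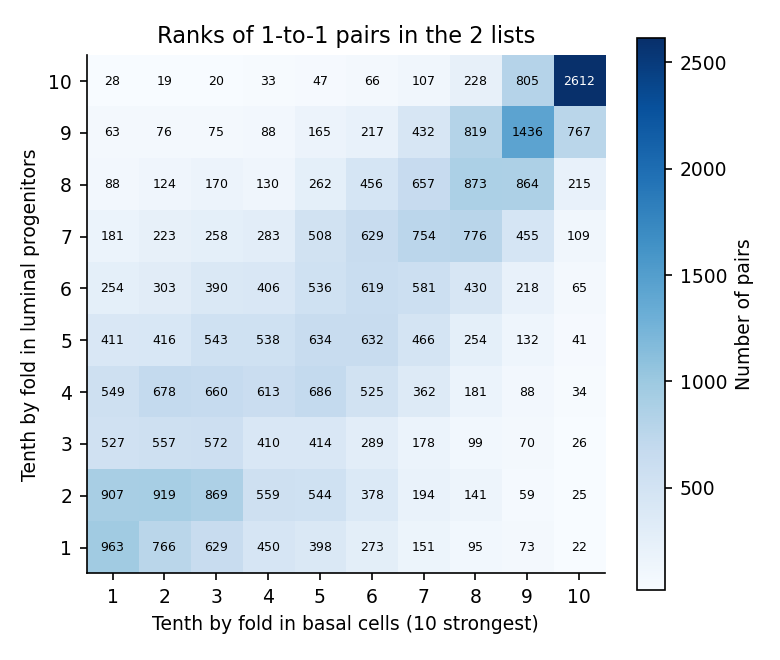
Number of 1-to-1 pairs (shade and printed count) by decile of the authors' fold in basal cells (horizontal axis) and luminal progenitors (vertical axis), with 10 the strongest. The 2612 pairs in the strongest decile of both are the largest cell, while 28 pairs were weakest in basal cells and strongest in luminal progenitors and 22 the reverse.

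The pairs with discordant ranks also differed in the other lists. They are called basal-ranked or progenitor-ranked here, by the list in which they stood at least 50 points higher. A mature luminal peak was present at 477 of the 1000 basal-ranked pairs (47.7%) and at 838 of the 1046 progenitor-ranked pairs (80.1%), compared with 72.8% of all pairs. An fMaSC peak was present at 86.4% of basal-ranked and 78.0% of progenitor-ranked pairs, against 85.0% of all pairs. PY230 open regions covered 22 basal-ranked (2.2%) and 57 progenitor-ranked pairs (5.45%), against 1.70% of all pairs. PY230 closed regions covered 124 basal-ranked (12.4%) and 100 progenitor-ranked pairs (9.56%), against 7.02% of all pairs. Basal-ranked pairs had median widths of 1201.5 bp in basal cells and 382 bp in luminal progenitors, and progenitor-ranked pairs 403 bp and 925.5 bp. Fold and width went together in each list, so these widths are tied to the choice of pairs by rank.

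The pair with the largest rank difference towards basal cells lay on chromosome 8, from 93348890 to 93350200 in basal cells and from 93349336 to 93349573 in luminal progenitors (mm9). It stood at percentile 95.5 among basal and 1.85 among luminal progenitor peaks of the pairs, was 1311 bp wide in basal cells and 238 bp in luminal progenitors, and was open in fMaSC and mature luminal cells too. The next, on chromosome 18 from 60828164 to 60831111, spanned 2948 bp in basal cells and 509 bp in luminal progenitors, at percentiles 98.9 and 5.65, and held no fMaSC or mature luminal peak. The pair on chromosome 16 from 56885784 to 56887061, at percentiles 95.5 and 3.53, was open in fMaSC but had no mature luminal peak. Towards luminal progenitors, 2 of the 3 leading pairs lay close together on chromosome 15. The basal peak from 25278259 to 25278630 was at percentile 0.824 among basal peaks, while its 1204 bp partner was at percentile 97.8 among luminal progenitor peaks. The basal peak from 25306323 to 25306888 was at percentile 4.21 and lay in a luminal progenitor peak of 4082 bp at percentile 97.7. Both pairs had fMaSC and mature luminal peaks. The third leading pair, on chromosome 10 with a basal peak from 109423277 to 109423517, stood at percentiles 0.824 and 94.9, with 241 bp in basal cells and 2787 bp in luminal progenitors, and was open in fMaSC alone of the 2 other types.

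Unpartnered sites of the 2 types overlapped the other normal types to different extents. Of unpartnered basal peaks, 15037 (40.5%) overlapped an fMaSC peak and 4650 (12.5%) a mature luminal peak. Of unpartnered luminal progenitor peaks, 4793 (31.4%) overlapped an fMaSC peak and 6350 (41.7%) a mature luminal peak. The mature luminal share was lower in basal peaks, with a difference of -29.1 points (basal minus luminal progenitor), and it was lower on 20 of 20 chromosomes (-32.9 to -25.1 points). Its ranges over chromosomes, 10.1 to 15.6% for basal and 35.6 to 46.8% for luminal progenitor peaks, did not overlap. The fMaSC share was 9.04 points higher in basal peaks, on 20 of 20 chromosomes (4.28 to 14.2 points), with overlapping ranges of 32.9 to 44.5% and 27.1 to 34.6%. With every basal and luminal progenitor peak set to 500 bp, the fMaSC shares were 41.4% and 38.6%, a difference of 2.80 points. The fMaSC peaks kept their widths, and the unpartnered peaks were then 38560 basal and 17997 luminal progenitor peaks. An fMaSC peak was present at 85.1% of shared basal and 84.2% of shared luminal progenitor peaks, and a mature luminal peak at 73.2% and 72.3%. Shared peaks of the 2 types are largely the same sites, so these pairs of values had to be close.

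Split by combination, 12549 unpartnered basal peaks (33.8%) were open in fMaSC but not in mature luminal cells, compared with 2756 unpartnered luminal progenitor peaks (18.1%). Peaks open in mature luminal cells but not in fMaSC made up 2162 (5.82%) of unpartnered basal and 4313 (28.3%) of unpartnered luminal progenitor peaks. Both other types had a peak at 6.70% of unpartnered basal and 13.4% of unpartnered luminal progenitor peaks. Neither had a peak at 53.7% of unpartnered basal and 40.3% of unpartnered luminal progenitor peaks. The peaks found in neither were the weakest, at a median percentile of 23.7 in the basal and 17.8 in the luminal progenitor list. In the strongest decile, only 58 of 362 unpartnered basal peaks (16.0%) and 8 of 80 unpartnered luminal progenitor peaks (10.0%) had neither. There, 80.9% of the basal peaks had an fMaSC and 22.9% a mature luminal peak, and 66.2% of the luminal progenitor peaks had an fMaSC and 78.8% a mature luminal peak. The basal list had the higher fMaSC share and the lower mature luminal share in each of the 10 deciles.

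**Figure D4:**
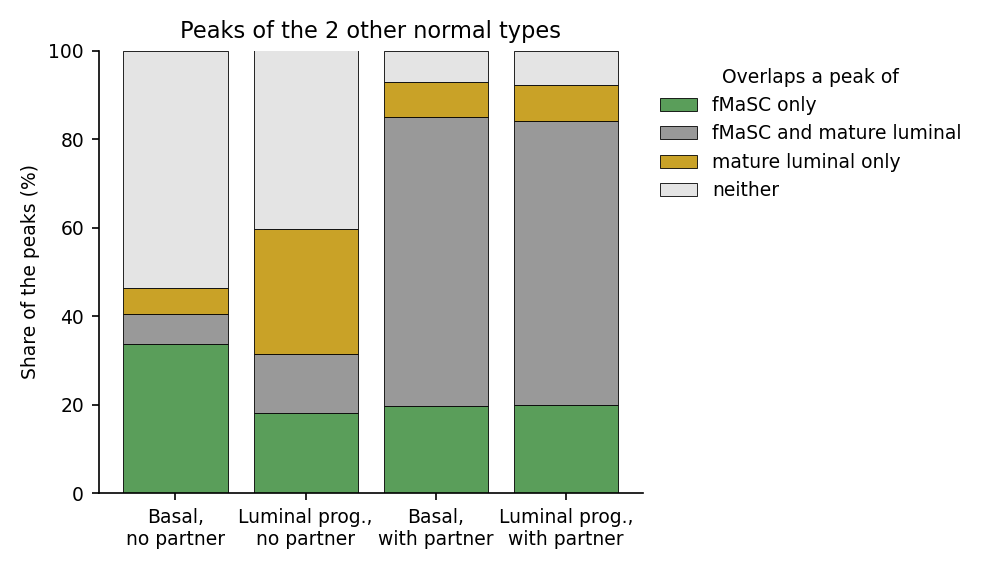
Share of peaks (%, vertical axis) that overlap a peak of fMaSC only, of both fMaSC and mature luminal cells, of mature luminal cells only, or of neither, for unpartnered and shared peaks of basal cells and luminal progenitors (bars). Unpartnered basal peaks are 33.8% fMaSC only and unpartnered luminal progenitor peaks 28.3% mature luminal only, while shared peaks, largely the same sites in both types, have nearly equal bars.

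The deposited UAR and URR lists are named for single cell types, and the labels do not expand these abbreviations. Most of their regions followed the pairwise split, except among luminal progenitor URRs. Of 5144 basal UARs, 3795 (73.8%) held unpartnered basal peaks and no shared basal peak, and 1347 (26.2%) held a shared basal peak. Of 306 luminal progenitor UARs, 250 (81.7%) held unpartnered luminal progenitor peaks and no shared one. Of 71 basal URRs, 47 (66.2%) held a luminal progenitor peak and no basal peak, and of 27 luminal progenitor URRs 13 (48.1%) held a basal peak and no luminal progenitor peak. Basal UARs covered 12.8% of unpartnered and 3.27% of shared basal peaks. Luminal progenitor UARs covered 1.90% of unpartnered and 0.134% of shared luminal progenitor peaks. Of the unpartnered peaks in the strongest decile of their list, UARs covered 70.2% of 362 basal and 33.8% of 80 luminal progenitor peaks. The UAR lists and the peaks come from the same samples, so neither is a check on the other.

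PY230 tumour regions met the unpartnered peaks of the 2 types unequally. Regions open in SOX10-high cells overlapped 313 unpartnered basal peaks (0.843%, exact binomial 95% interval 0.752 to 0.941%) and 997 unpartnered luminal progenitor peaks (6.54%, 6.15 to 6.95%). Among shared peaks the open list held 1.68% of basal and 1.65% of luminal progenitor peaks, above the unpartnered basal and below the unpartnered luminal progenitor share. The unpartnered basal share was lower than the luminal progenitor one on 20 of 20 chromosomes, and the luminal progenitor share was 7.76 times as high. With the 30015 strongest peaks per list the shares were 1.18% of basal and 5.42% of luminal progenitor peaks. Partners were then sought among the kept peaks alone, so peaks with a weaker partner in the full list counted as unpartnered. Regions closed in SOX10-high cells overlapped 1894 unpartnered basal peaks (5.10%) and 2050 unpartnered luminal progenitor peaks (13.4%), again with the lower share in basal cells on 20 of 20 chromosomes. Among shared peaks the closed list held 6.83% of basal and 6.69% of luminal progenitor peaks. This second difference depended on the setting. With the 30015 strongest peaks per list, and partners again sought among these alone, the shares were 9.22% and 9.62%, a difference of -0.405 points. Seen from the 3208 open regions, 249 (7.76%) held a basal peak alone of the 2 types, 872 (27.2%) a luminal progenitor peak alone, 689 (21.5%) both and 1398 (43.6%) neither. Of the 15108 closed regions, 1667 (11%) held a basal peak alone, 1876 (12.4%) a luminal progenitor peak alone, 2875 (19%) both and 8690 (57.5%) neither.

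Closed regions were frequent at unpartnered peaks that mature luminal cells shared, in both types. Among unpartnered peaks open in mature luminal cells but not in fMaSC, 32.0% of basal and 36.6% of luminal progenitor peaks were in the closed list. Among those open in both other types, the closed list held 25.8% of basal and 18.9% of luminal progenitor peaks. Among peaks found in neither, it held 1.51% of basal and 1.14% of luminal progenitor peaks. Open regions divided the types otherwise. Among unpartnered peaks shared with fMaSC but not with mature luminal cells, 1.3% of basal (163 of 12549) and 12% of luminal progenitor peaks (332 of 2756) were in the open list. Among those found in neither, the open list held 0.717% of basal and 9.66% of luminal progenitor peaks.

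Along the ranks, the closed share differed in opposite directions in the 2 cell types. Of unpartnered basal peaks, 14.9% (54 of 362) lay in the closed list in the strongest decile, against 3.98% in the weakest. Of unpartnered luminal progenitor peaks, the strongest decile had 2.5% (2 of 80, exact binomial 95% interval 0.304 to 8.74%), against 12.4% in the weakest. The open list held 0.552% of the strongest (2 of 362) and 0.700% of the weakest unpartnered basal peaks. It held 15.0% of the strongest (12 of 80, interval 8.00 to 24.7%) and 4.52% of the weakest unpartnered luminal progenitor peaks. Among peaks that mature luminal cells shared, the directions were the same, but the basal share was higher only in deciles 8 to 10. There, 220 of 603 such basal peaks (36.5%) were closed, compared with 58 of 602 such luminal progenitor peaks (9.63%). In deciles 4 to 7 the shares were 27.5% and 27.9%. In deciles 1 to 3, 498 of 1807 such basal peaks (27.6%) and 1068 of 2752 such luminal progenitor peaks (38.8%) were closed. Overlap with mature luminal peaks itself was more frequent in the strongest than in the weakest decile of both lists, and its part in the closed shares was not tested. Of the unpartnered peaks without a mature luminal peak in deciles 8 to 10, 24 of 2774 basal (0.865%) and 86 of 307 luminal progenitor peaks (28.0%) were open. Stronger peaks were also wider, which raises the chance of meeting a region, and the part of width in these shares was not tested.

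**Figure D5:**
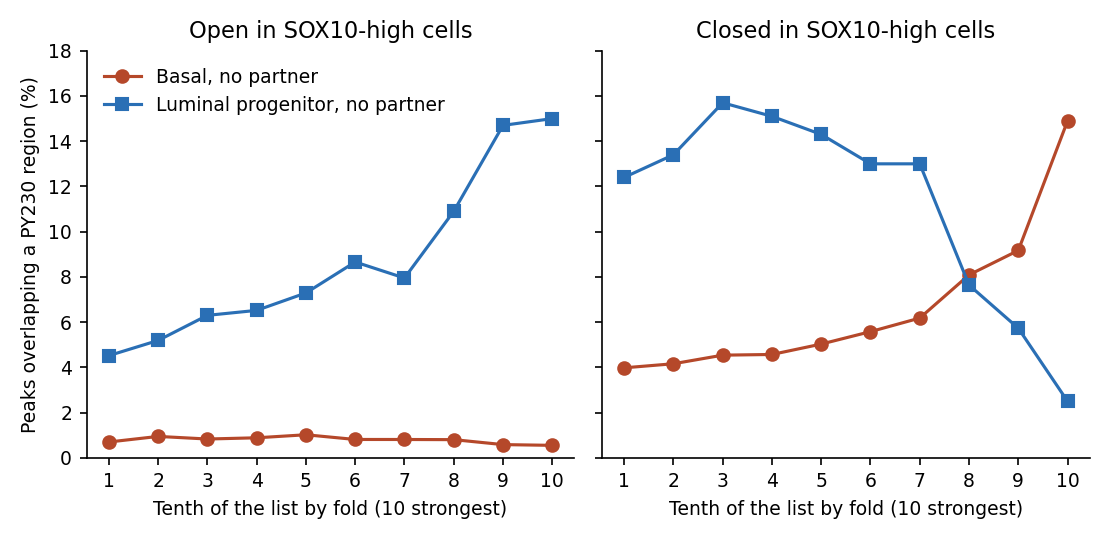
Share of unpartnered peaks (%, vertical axes) that overlap PY230 regions open (left) or closed (right) in SOX10-high cells, by decile of the authors' fold within each list (horizontal axes, 10 strongest), for basal (red circles) and luminal progenitor peaks (blue squares). The closed share reaches 14.9% in the strongest basal decile and 2.5% in the strongest luminal progenitor decile, and the open share 0.552% and 15.0%.

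Unpartnered basal peaks occurred in longer uninterrupted stretches. Ordered along each chromosome, the 37143 unpartnered basal peaks fell into 18473 runs without a luminal progenitor or shared peak between them, and the 15242 unpartnered luminal progenitor peaks into 10779 runs. Runs of at least 5 peaks held 26.0% of unpartnered basal peaks (1361 runs) and 6.99% of unpartnered luminal progenitor peaks (172 runs). Single peaks made up 27.9% of unpartnered basal and 52.4% of unpartnered luminal progenitor peaks. A larger share of unpartnered peaks gives longer runs by itself, so the run lengths carry no comparison between types beyond that share. Within basal cells, 19% of peaks in runs of at least 5 lay in a basal UAR, against 7.60% of single peaks, while their fMaSC shares were 40.0% and 40.7%. Within luminal progenitors these UAR shares were 5.82% and 1.17%, and the mature luminal shares 33.2% and 43.5%. Peaks in runs of at least 5 were also wider than single peaks (medians of 525 against 449 bp in basal cells, 446 against 394 bp in luminal progenitors). They stood higher by fold too, and the part of width and rank in the UAR shares was not tested.

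The longest basal run had 32 peaks in 183 kb of chromosome 11, from 101647532 to 101830402 (mm9). It held no luminal progenitor peak, 13 fMaSC peaks, 1 mature luminal peak and 6 basal UARs. A run of 29 basal peaks spanned 838 kb of chromosome 7 from 85074011 to 85911551, with 11 fMaSC peaks, 12 mature luminal peaks and 7 regions of the PY230 closed list. A run of 26 basal peaks stretched over 1549 kb of chromosome 1 from 159516782 to 161065806, with 24 fMaSC and 16 mature luminal peaks. The first of these was thus nearly without mature luminal sites and the last was not. The longest luminal progenitor runs had 12 peaks each. They lay on chromosome 10 from 24500706 to 24555184 (54.5 kb, 7 fMaSC and 3 mature luminal peaks), on chromosome 14 from 14193327 to 14724323 (531 kb, 5 fMaSC and 3 mature luminal peaks, 3 luminal progenitor UARs) and on chromosome 4 from 145703613 to 146777634 (1074 kb, 4 fMaSC and 13 mature luminal peaks).

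Counts in bins of 1 Mb are read against the totals of 37143 unpartnered basal and 15242 unpartnered luminal progenitor peaks, which by themselves put basal peaks ahead in most bins. Of 2429 bins of 1 Mb that held a peak, 1750 (72.0%) had more unpartnered basal than luminal progenitor peaks, 538 (22.1%) had fewer and 141 had equal numbers. The median bin held 12 unpartnered basal and 5 unpartnered luminal progenitor peaks. Among 1739 bins with at least 10 unpartnered peaks of either type, luminal progenitor peaks led in 284. The densest basal window, on chromosome 7 from 119286100, held 98 unpartnered basal peaks among 137, and 5 unpartnered luminal progenitor peaks among 44. Windows on chromosome 11 from 116908918 and on chromosome 9 from 42924134 held 94 and 93 unpartnered basal peaks, against 4 unpartnered luminal progenitor peaks in each. The chromosome 7 window held 1 open and 10 closed PY230 regions, the chromosome 11 window 11 open and 3 closed, and the chromosome 9 window no open and 28 closed regions. The densest luminal progenitor window, on chromosome 15 from 24956757, held 13 unpartnered basal peaks among 64, and 52 unpartnered luminal progenitor peaks among 101. It contains both chromosome 15 pairs named above, so weakly ranked basal partners and missing basal partners fell in the same stretch. The window on chromosome 6 from 134393125 held 30 unpartnered basal and 38 unpartnered luminal progenitor peaks, and that on chromosome 12 from 40305647 held 11 and 32.

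The strongest unpartnered sites were not the strongest sites of their lists. The leading unpartnered basal peak, on chromosome 8 from 22044242 to 22045498, ranked 168th of its list with a fold of 33.4 over the authors' background. It lay 1104236 bp from the nearest luminal progenitor peak and overlapped an fMaSC peak but no mature luminal peak. The next, on chromosome 16 from 90467887 to 90469544, ranked 296th, lay 6449 bp from a luminal progenitor peak, overlapped an fMaSC peak and a basal UAR, and was closed in PY230 SOX10-high cells. The third, on chromosome 14 from 77884347 to 77885725, overlapped neither other normal type and lay in a basal UAR. Those on chromosome 8 from 37702873 and chromosome 4 from 20704172 overlapped fMaSC peaks. None of these 5 basal peaks overlapped a mature luminal peak. By contrast, each of the 5 leading unpartnered luminal progenitor peaks overlapped both an fMaSC and a mature luminal peak. The first, on chromosome 6 from 142707631 to 142709368, ranked 443rd with a fold of 28.1 and lay 1275 bp from a basal peak. The second, on chromosome 1 from 23493706 to 23495124, ranked 801st, lay 102729 bp from a basal peak and was the only 1 of the 5 within a luminal progenitor UAR. The others lay on chromosome 10 from 83107399, on chromosome 11 from 34583977 and on chromosome 6 from 4932361. At the other end, the 3 strongest 1-to-1 pairs were the same sites in both lists, on chromosome 17 from 39979860 and on chromosome 2 from 98506310 and 98502297 in the basal list, and all 3 had peaks in fMaSC and mature luminal cells. No filter for repeats or mapping artefacts was applied here, so whether these 3 are regulatory sites or artefacts of mapping was not tested.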

How the data were processed

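Nuclei of sorted mouse cells were profiled by ATAC-seq with a Nextera transposase and paired-end sequencing, per the labels' protocols. Build mm9, MACS2 2.1.1, SICER, Bowtie 0.12.8, bedtools 2.20.1, FastQC and SAMtools 1.3.1 are named, without roles, by the submitters' processing notes. The sources used here do not state how duplicates, repeats and the Tn5 offset were handled. The authors deposited 1 peak list per normal cell type, called on both samples at a q-value of 0.001 per the list names. The value deposited by the authors for each peak is its fold enrichment ratio over the background of their peak caller, and it was used only as a rank within a list. PY230, UAR and URR lists carry a score deposited by the authors whose scale is not given, and only their positions were used. These lists lie on a 100 bp grid and were moved by 1 base, so that all coordinates are 1-based.

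Mitochondrial peaks (3 in each list) were left out. Overlaps, ranks and distances were computed with pandas 2.3.3, scipy 1.17.1 and numpy 2.4.6 under Python 3.11.15, and overlap counts were tested on simulated data. Intervals of shares are exact binomial (Clopper-Pearson, 95%). For the values recomputed under other settings, 95% intervals of differences of shares used the normal approximation. Those of median width differences used order statistics. No test was made, because the lists hold no replicates. The regions named were the 5 strongest unpartnered peaks and 3 strongest pairs of each list, the 3 pairs of largest rank difference each way, and the 3 longest runs and 3 densest windows of 1 Mb of each type. Members, lists and rules were chosen with earlier results of these data known. Planned gene lists and motifs were not used, since the annotation and sequences at hand were of another build. UAR and URR lists of fMaSC and mature luminal cells were not used here.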

Additional observations from a re-analysis of the deposited data

How the results depend on the processing

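Of 62 values recomputed under other settings, 16 stayed within the 95% interval of the main value, 46 moved outside it and 0 changed sign. These intervals cover counting error over peaks only, and peaks of a list are not independent. Each setting gives, in this order, the unpartnered share of basal and of luminal progenitor peaks, and the difference of unpartnered basal minus luminal progenitor peaks in the share meeting fMaSC, mature luminal, PY230 open and PY230 closed lists. Median width differences, basal minus luminal progenitor, follow for unpartnered peaks and for pairs. With at least 50% of a peak covered, the shares were 54.3% and 29.2%, the differences 10.7, -25.5, -5.22 and -7.19 points, and the widths 106 and 126 bp. With a peak within 1 kb counted as shared, the shares were 41.8% and 21.7%, and the last 3 differences -30.2, -6.33 and -9.43 points. At or above each list's median fold, they were 44.3% and 23.3%, with differences of 7.78, -34.0 and -2.76 points (fMaSC, mature luminal, closed) and widths of 164 and 249 bp. With 30015 peaks per list, they were 33.5% and 32.3%, with differences of 6.68, -34.4, -4.23 and -0.405 points and widths of 290.0 and 284 bp. With 60030 peaks per list, they were 36.6% and 33.4%, with differences of 11, -4.92 and -7.15 points (fMaSC, open, closed) and widths of 232 and 236 bp. With every basal and luminal progenitor peak 500 bp wide, they were 48.0% and 30.0%, and the differences 2.80, -31.6, -4.86 and -7.09 points. With peaks closer than 500 bp merged, they were 44.9% and 24.8%, with a closed difference of -9.07 points and widths of 88.0 and 224 bp. Autosomes alone moved none of them past its interval.

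Lists of equal length with mostly 1 partner per peak must leave nearly equal unpartnered shares, so those values with 30015 and 60030 peaks follow from the setting. The closed difference was nearly absent with 30015 peaks per list, and the cause was not tested. Depth is unknown and limits what absence of a peak can mean. Leaving out a replicate was not possible, because both samples were pooled by the authors. No paired analysis was possible because the pooled lists carry no values per replicate.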
